A study of Homo sapiens with 12 samples.

Results

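Apolipoprotein genes were examined in 2 human cell lines labelled as uveal melanoma, OCM1 and MUM2B. The 6 genes were APOC2, APOC1, APOE, APOD, APOL1 and APOL2. They are 6 of the 18132 genes with a probe set of their own on the array. APOC2 was chosen by its measured value, a higher level in OCM1 cells overexpressing CANT1, and the other 5 were taken with it as genes named for apolipoproteins. Each gene was read from the probe set annotated to its symbol alone that was brightest on average over the 12 arrays, and its other probe sets served as a check. All 6 genes reached a signal of 100 on 3 or more arrays and so were among the 12715 genes tested. APOC2 did so only through its 3 OCM1 CANT1 arrays, since 1 of the 9 other arrays reached that signal.

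CANT1 here is a long noncoding RNA of the CASC15 locus, not the nucleotidase gene of the same symbol. RNA was hybridised to 12 Affymetrix PrimeView arrays, which read transcripts mostly near their 3′ ends. There were 4 groups of 3 arrays: OCM1 cells overexpressing CANT1, wild type OCM1 cells, MUM2B cells overexpressing CANT1, and wild type MUM2B cells. In the wild type groups replicate 1 is titled wild type, while replicates 2 and 3 carry the genotype label control. All are called wild type here, and whether the labels mean the same cells is not given. Replicate 1 of each group carries a growth label that describes puromycin selection of the overexpressing cells, and replicates 2 and 3 carry one naming medium with serum. No empty vector is described, so CANT1 cannot be told apart from vector and selection in these comparisons. Nothing in the labels says that replicates were separate cultures or that a line was 1 clone, so p-values measure only how arrays vary, and that variation may be technical. The CANT1 transcript itself was not followed by a probe set used here. In bulk RNA of this kind, fewer cells of a type and less RNA per cell cannot be told apart.

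Apolipoproteins are the protein coat of lipoproteins, the particles that carry triglyceride and cholesterol between cells. Most circulating apolipoprotein is made by liver and intestine, while APOE is also made by macrophages, glia and cells of the pigment lineage. APOC2 is the cofactor that lipoprotein lipase needs to split triglyceride. APOC1 inhibits lipase and lipid transfer reactions, and APOE is the ligand through which remnant particles bind LDL receptor family members. APOE, APOC1 and APOC2 lie side by side in a cluster on chromosome 19, together with APOC4 and the pseudogene APOC1P1. APOD is a lipocalin, unrelated to the other members in structure, that binds small lipids. APOL1 and APOL2 belong to a separate interferon-inducible family on chromosome 22, of which APOL1 is secreted and kills trypanosomes.

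The start regions of the clustered genes are shown because these neighbours include APOC2, which was high in 1 group, and APOC1 and APOE, which were high in both OCM1 groups. Sequences are from RefSeq on build GRCh38.p14, plus strand, 5′ to 3′, and each runs 300 bases, from 250 before the annotated start to 50 from it. Of the 6 genes, 3 matched an entry, and APOE has 3 annotated windows, of which the first is shown. Capitals mark a TATA box in APOC2 and GC boxes in APOC1 and APOE. The windows lie at chr19:44945801-44946100 for APOC2, chr19:44914422-44914721 for APOC1 and chr19:44905546-44905845 for APOE.
APOC2: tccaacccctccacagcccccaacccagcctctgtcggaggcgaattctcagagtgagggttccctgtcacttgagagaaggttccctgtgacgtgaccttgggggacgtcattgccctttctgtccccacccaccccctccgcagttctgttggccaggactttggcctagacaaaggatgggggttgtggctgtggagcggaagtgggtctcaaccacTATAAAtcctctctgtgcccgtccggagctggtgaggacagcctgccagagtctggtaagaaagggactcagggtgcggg
APOC1: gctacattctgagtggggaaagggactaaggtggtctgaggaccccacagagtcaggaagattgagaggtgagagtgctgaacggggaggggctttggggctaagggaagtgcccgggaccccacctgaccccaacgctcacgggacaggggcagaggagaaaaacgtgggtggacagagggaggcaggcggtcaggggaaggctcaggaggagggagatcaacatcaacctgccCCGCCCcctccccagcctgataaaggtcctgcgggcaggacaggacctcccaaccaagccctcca
APOE: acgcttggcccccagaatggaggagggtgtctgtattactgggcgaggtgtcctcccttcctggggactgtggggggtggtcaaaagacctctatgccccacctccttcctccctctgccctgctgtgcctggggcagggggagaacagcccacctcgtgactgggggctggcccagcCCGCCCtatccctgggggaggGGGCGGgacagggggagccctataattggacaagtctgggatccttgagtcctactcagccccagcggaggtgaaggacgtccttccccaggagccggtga

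Both strands were searched for 7 motifs. The APOC2 window held TATAAA on the plus strand at −30 from the start, a motif found in 11.5% of 35116 windows of this length. It held no GC box, GGGCGG, which 45% of windows hold. The APOC1 window held 1 GC box, read on the minus strand at −15, and the APOE window held 2, at −72 on the minus strand and at −51 on the plus strand. None of the 3 windows held the interferon response core GAAANNGAAA (3.57% of windows), the gamma-activated site TTCNNNGAA (7.66%), the liver X receptor direct repeat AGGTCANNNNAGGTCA (0.0199%), the E-box CACGTG (7.26%) or the M-box core CATGTG (11.1%). The TATA box was added to the search after the sequences had been read. These matches are letters in a window and were not tied to the array values.

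The labelled cell type was set beside its markers before the members were read. OCM1 had all 7 measured pigment cell markers at a signal of at least 100 on every array. Their summed signal was 69580 to 77827 in OCM1 CANT1 cells. It was 74752 and 73031 on replicates 2 and 3 of wild type OCM1, but 14005 on replicate 1. MUM2B had 4 of the 7 at that signal on every array and a sum of 642 to 722 in CANT1 cells, against 618 to 839 in wild type cells. MLANA and TYRP1 were below 100 on every MUM2B array. MUM2B instead had KRT8, KRT18 and KRT19, with summed epithelial marker signals of 17668 to 22410 in CANT1 cells and 14902 to 23270 in wild type cells. The same sums were 1478 to 1929 in OCM1 CANT1 cells and 1507 to 1767 in wild type OCM1 cells, with KRT18 at a signal of at least 100 on every array. All 4 endothelial markers were seen in MUM2B, with sums of 3214 to 5080 in CANT1 cells and 2763 to 4193 in wild type cells, against 449 to 515 and 394 to 527 in OCM1. Fibroblast markers summed to 1556 to 1764 in OCM1 CANT1 cells and 461 to 1694 in wild type OCM1 cells, against 300 to 368 and 295 to 402 in MUM2B. The pigment markers bore out a pigment lineage in OCM1, though they do not show uveal origin. In MUM2B, 4 of the 7 reached a signal of 100 on every array, but their sum was far below that of OCM1. There the markers did not bear the label out. Wild type OCM1 replicate 1 stood apart. Its mean correlation with the other OCM1 arrays was 0.828, against 0.936 to 0.95 for the rest of that line. On every replicate 1 array the 3′ end of ACTB exceeded its 5′ end by 2.15 to 2.51 log2 units, against 0.473 to 0.911 on replicates 2 and 3, a usual sign of RNA quality. The part of these differences in the results below was not tested, and values are therefore also given for the replicate 1 arrays and for replicates 2 and 3 apart.

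Levels are log2 of scaled signal plus 32, and differences are on the same scale, which understates the fold of dim genes. Differences carry the standard error of a limma fit to all 12 arrays with a term for the labelled set. The spread of a gene is estimated over both lines together, so a standard error within a line also carries the spread of the other line. The OCM1 comparison of CANT1 and wild type cells is the one that singled out APOC2. Its values are therefore described for every member without a p-value.

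APOC2 was high in 1 group only, OCM1 cells with CANT1. Its level was 10.34, 11.08 and 11.01 on the 3 OCM1 CANT1 arrays, against 7.55, 7.01 and 6.97 on the 3 wild type OCM1 arrays. The groups did not overlap, and the lowest CANT1 value came from replicate 1, the highest wild type value also. In scaled signal the CANT1 arrays averaged 1809 and the wild type arrays 115, where 1 wild type array reached a signal of 100. The difference was 3.63 ± 0.22, a 12.4-fold ratio. It was 2.78 between the replicate 1 arrays and 4.06 between the means of replicates 2 and 3. Over the arrays left out in turn it ran from 3.48 to 3.97, and without wild type OCM1 replicate 1 it was 3.87. The standard error also draws on the dim MUM2B arrays. Their SD was 0.14 in CANT1 cells and 0.07 in wild type cells, against 0.41 and 0.33 in OCM1.

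In MUM2B the gene stayed at the lower end of its range. APOC2 had 6.85, 6.59 and 6.64 on the MUM2B CANT1 arrays, against 6.65, 6.53 and 6.63 on the wild type MUM2B arrays. No MUM2B array reached a signal of 100, and the groups overlapped. The difference of 0.09 ± 0.22 did not pass (limma adjusted p = 1), with a 95% interval of −0.40 to 0.59. APOC2 was in the test only through its OCM1 CANT1 arrays, and both MUM2B groups lay at dim levels, so this p-value says little about a change. Whether CANT1 acted differently on APOC2 in the lines was not tested, because the OCM1 difference had chosen the gene.

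The order of APOC2 levels was OCM1 CANT1, OCM1 wild type, MUM2B CANT1 and MUM2B wild type. The first group stood clear of the other 3. Those 3 had 1 array of 9 at a signal of 100, and their order is one of dim values. The wild type OCM1 arrays lay above the MUM2B arrays, and the MUM2B groups overlapped. Between the wild type lines, OCM1 minus MUM2B was 0.58 ± 0.22 and did not pass (limma adjusted p = 0.0743), although all 3 OCM1 arrays lay above all 3 MUM2B arrays, as they did for 19% of all genes. Without wild type OCM1 replicate 1 the difference was 0.34 (limma adjusted p = 0.218), and without OCM1 CANT1 replicate 1 it was 0.58 (limma adjusted p = 0.00668). The wild type OCM1 arrays were part of the comparison that chose APOC2, and the gene was tested here only through its OCM1 CANT1 arrays. These p-values therefore say little about a difference between the wild type lines. Between the CANT1 lines the difference was 4.11 ± 0.22, given as a description because it holds the arrays that chose the gene. APOC2 has 1 probe set of its own, and 3 others are annotated to several symbols and were not used. Its type (ending in _x_at) can share bases with other transcripts, and APOC2 is also part of a readthrough transcript with APOC4, so the signal could not be divided between them.

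**Figure D1:**
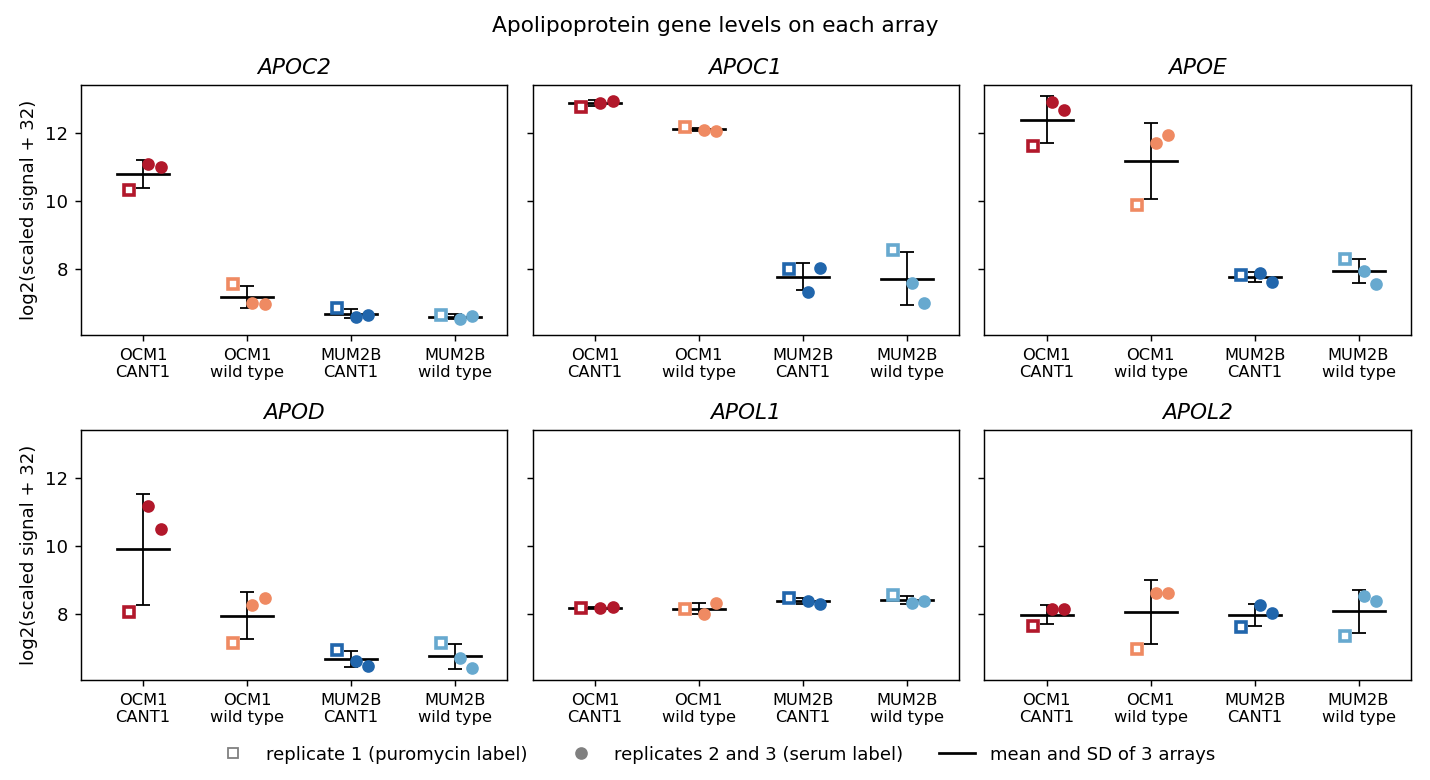
Level of each apolipoprotein gene on each of the 12 arrays, as log2 of scaled signal plus 32, by group; open squares are replicate 1, filled circles replicates 2 and 3, and bars the mean and SD of 3 arrays. APOC2 lay between 10.34 and 11.08 in OCM1 CANT1 cells and between 6.53 and 7.55 in the other 3 groups, whereas APOC1 and APOE were high in both OCM1 groups.

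APOC1, the lipase inhibitor beside APOE, was high in OCM1 with or without CANT1 and low in MUM2B. Its level was 12.78, 12.90 and 12.95 in OCM1 CANT1 cells, against 12.17, 12.10 and 12.07 in wild type OCM1 cells. These groups did not overlap, and values within each lay close together (SD 0.09 and 0.05). The difference of 0.77 ± 0.30 corresponds to 1.7-fold, with 0.61 between the replicate 1 arrays and 0.84 between replicates 2 and 3. It ran from 0.63 to 1.00 over the arrays left out in turn.

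In MUM2B, APOC1 was scattered. It had 8.0, 7.32 and 8.03 in CANT1 cells, against 8.56, 7.58 and 7.01 in wild type cells, and the groups overlapped throughout. The difference was 0.06 ± 0.30 (95% interval −0.61 to 0.74, limma adjusted p = 1), with −0.56 between the replicate 1 arrays and 0.38 between replicates 2 and 3.

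APOC1 separated the lines more than it separated CANT1 from wild type cells. Between the CANT1 lines, OCM1 exceeded MUM2B by 5.10 ± 0.30, or 34.2-fold (limma adjusted p = 1.87e-06). Between the wild type lines it exceeded MUM2B by 4.40 ± 0.30, or 21-fold (limma adjusted p = 5.36e-06). All 3 OCM1 arrays lay above all 3 MUM2B arrays in both comparisons, as for 29.4% of all genes in CANT1 cells and 19% in wild type cells. The second brightest of the 5 APOC1 probe sets gave 5.90 and 4.70 for these comparisons and 1.10 for OCM1 CANT1 minus wild type. The other 3 were dim, at a mean level of 6.29 to 7.42 over the arrays, and gave 0.01 to 0.20 for the last of these. On the second brightest the OCM1 groups overlapped, at 11.50 on CANT1 replicate 1 and 11.63 on wild type replicate 2.

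APOC1P1, the pseudogene copy of APOC1, had a probe set of its own. It read 8.08, 7.57 and 7.70 in OCM1 CANT1 cells, against 7.44, 7.0 and 7.07 in wild type OCM1 cells. That difference of 0.61 ± 0.14 did not pass (limma adjusted p = 0.185), and how far either probe set reads the other gene's transcript was not tested.

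APOE, the receptor-binding apolipoprotein, was likewise high in both OCM1 groups and low in MUM2B. Its level was 11.62, 12.91 and 12.67 in OCM1 CANT1 cells, against 9.90, 11.71 and 11.96 in wild type OCM1 cells. The groups overlapped, since the CANT1 replicate 1 array lay below wild type replicates 2 and 3, and the wild type replicate 1 array was the lowest of all 6. The difference was 1.21 ± 0.44, or 2.31-fold, and positive within both labelled sets, at 1.72 and 0.96. All CANT1 arrays lay above the wild type arrays of their own set, as for 13.6% of all genes. Without wild type OCM1 replicate 1, the array that stood apart, it was 0.63.

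In MUM2B, APOE had 7.83, 7.89 and 7.61 in CANT1 cells, against 8.29, 7.96 and 7.57 in wild type cells. The wild type values spanned the CANT1 values, and the difference of −0.16 ± 0.44 did not pass (95% interval −1.16 to 0.84, limma adjusted p = 1).

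Between the CANT1 lines APOE was 24.7-fold higher in OCM1 (4.62 ± 0.44, limma adjusted p = 4.83e-05). Between the wild type lines it was 9.53-fold higher in OCM1 (3.25 ± 0.44, limma adjusted p = 0.000482). The wild type difference was 1.62 on replicate 1 and 4.07 on replicates 2 and 3. Without wild type OCM1 replicate 1 it was 3.83 (limma adjusted p = 2.21e-05). APOE has 1 probe set of its own, also of the type that can share bases with other transcripts.

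APOD, the lipocalin member, had its highest values in OCM1 CANT1 cells, but on replicates 2 and 3 alone. Its level was 8.07, 11.18 and 10.50 in OCM1 CANT1 cells, against 7.16, 8.26 and 8.47 in wild type OCM1 cells. The replicate 1 CANT1 array lay among the wild type values, so the groups overlapped. The difference of 1.96 ± 0.61, or 3.88-fold, was made of 0.92 on replicate 1 and 2.48 on replicates 2 and 3. It ran from 1.42 to 2.86 over the arrays left out in turn.

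In MUM2B, APOD had 6.95, 6.63 and 6.47 in CANT1 cells, against 7.16, 6.70 and 6.43 in wild type cells. These are dim values, with 1 of the 6 arrays at a signal of 100, and the difference was −0.08 ± 0.61 (95% interval −1.45 to 1.29, limma adjusted p = 1). A change of 2-fold in either direction lies within that interval. The interval also carries the spread of the OCM1 arrays, with SD 1.63 in CANT1 cells and 0.71 in wild type cells. In MUM2B the SD was 0.24 and 0.37.

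Between the CANT1 lines APOD was 9.41-fold higher in OCM1 (3.23 ± 0.61, limma adjusted p = 0.00273), with 1.12 on replicate 1 and 4.29 on replicates 2 and 3. Between the wild type lines the difference of 1.20 ± 0.61 did not pass (limma adjusted p = 0.171). There replicate 1 of both lines had the same level, 7.16, and replicates 2 and 3 differed by 1.80. On replicates 2 and 3 alone that difference passed (limma adjusted p = 4.5e-06), in a fit that called 64.7% of the 12105 genes it tested. It also passed without wild type MUM2B replicate 1 (1.79, limma adjusted p = 0.0496) and without OCM1 CANT1 replicate 1 (1.20, limma adjusted p = 0.0332). A second APOD probe set gave 2.01 for OCM1 CANT1 minus wild type, 3.23 between the CANT1 lines and 1.16 between the wild type lines, while the third was dim and gave 0.08, 0.03 and 0.00.

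**Figure D2:**
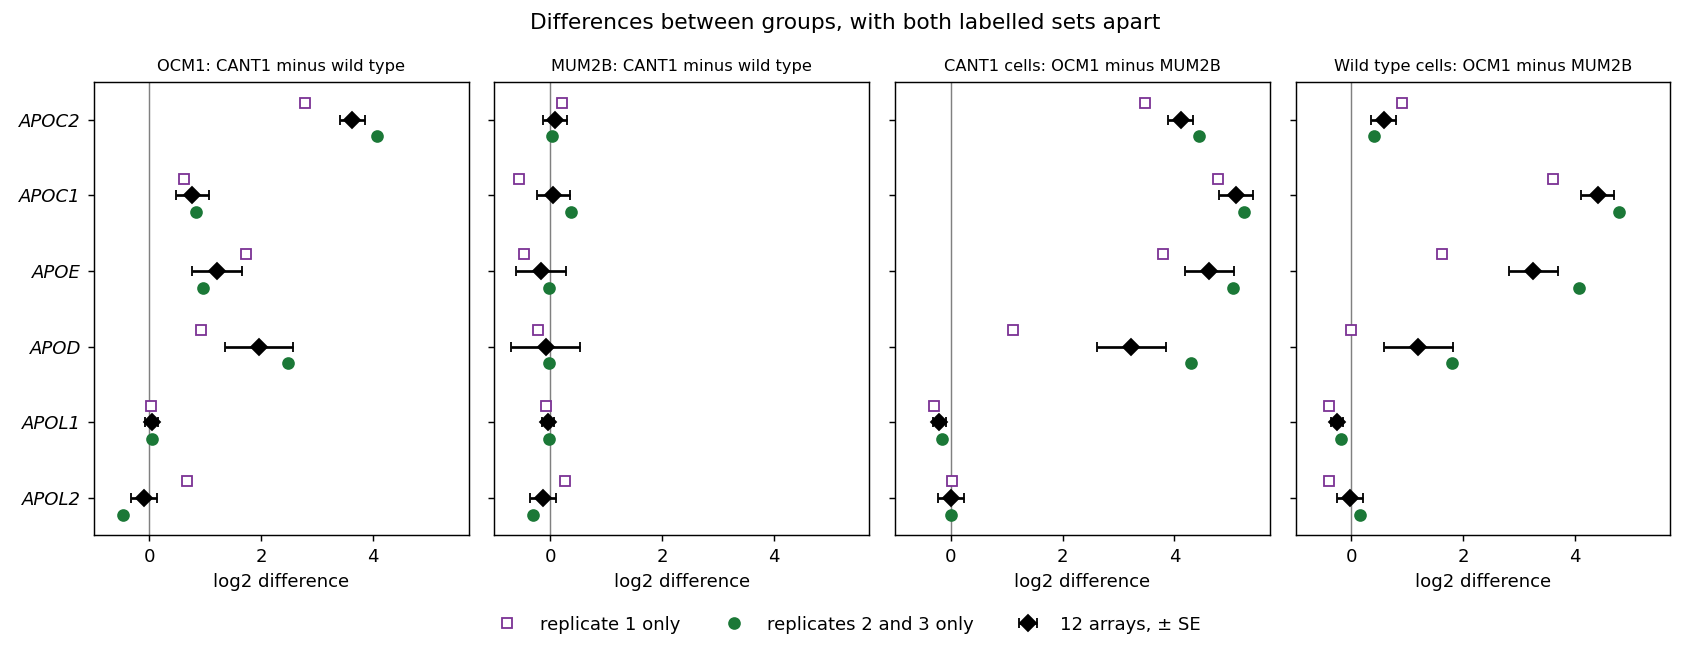
Log2 difference of each apolipoprotein gene in 4 comparisons; diamonds are the 12-array fit with its standard error, open squares replicate 1 alone and filled circles replicates 2 and 3. For APOC2 in OCM1 these were 3.63, 2.78 and 4.06, and for APOD between the CANT1 lines 3.23, 1.12 and 4.29; in MUM2B every diamond lay between −0.16 and 0.09.

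APOL1, the trypanolytic member, was close to level over all 4 groups. It had 8.19, 8.19 and 8.21 in OCM1 CANT1 cells, against 8.16, 8.01 and 8.32 in wild type OCM1 cells, a difference of 0.04 ± 0.11. In MUM2B it had 8.49, 8.40 and 8.29 in CANT1 cells, against 8.57, 8.33 and 8.38 in wild type cells. That difference was −0.03 ± 0.11 (95% interval −0.28 to 0.22, limma adjusted p = 1), the narrowest interval of any member in MUM2B. It holds for the probe set used only. On the other APOL1 probe sets the same difference ran from −0.27 to 0.39, which reaches past that interval.

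OCM1 was slightly below MUM2B in APOL1, by an amount that did not pass. The difference was −0.20 ± 0.11 between the CANT1 lines (limma adjusted p = 0.205) and −0.26 ± 0.11 between the wild type lines (limma adjusted p = 0.105). All 3 OCM1 arrays lay below all 3 MUM2B arrays in both, as for 22.2% of all genes in CANT1 cells and 13.7% in wild type cells. APOL1 has 9 probe sets of its own, and the one used, at a mean level of 8.30, was nearly tied with another at 8.29. Over the 8 others the OCM1 minus MUM2B mean over 6 arrays each ran from −0.44 to 0.03, against −0.23 for the one used.

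APOL2, the intracellular relative of APOL1, did not pass in any comparison over all 12 arrays, and its labelled sets disagreed. It had 7.66, 8.15 and 8.15 in OCM1 CANT1 cells, against 6.98, 8.62 and 8.62 in wild type OCM1 cells. In MUM2B it had 7.64, 8.26 and 8.04 in CANT1 cells, against 7.37, 8.53 and 8.39 in wild type cells. Replicate 1 was the lowest array of every group. CANT1 replicate 1 lay above wild type replicate 1 in both lines, and CANT1 replicates 2 and 3 lay below wild type replicates 2 and 3.

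In OCM1 the APOL2 difference of −0.09 ± 0.23 combined 0.67 on replicate 1 with −0.47 on replicates 2 and 3, where 8.15 and 8.15 stood against 8.62 and 8.62. In MUM2B the difference of −0.12 ± 0.23 (limma adjusted p = 1) combined 0.27 with −0.31. On replicates 2 and 3 alone the MUM2B difference passed (−0.31, limma adjusted p = 0.0437), in a fit that called 25% of 12105 genes, but it missed the threshold when the filter on dim genes was dropped (limma adjusted p = 0.0502). Between the lines APOL2 differed by 0.01 ± 0.23 in CANT1 cells and by −0.02 ± 0.23 in wild type cells (limma adjusted p = 0.984 and 0.955).

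Counted together, 0 of the 6 genes passed for CANT1 against wild type in MUM2B by limma. None reached an unadjusted p under 0.05 either. Over all 12715 genes 0 passed (0%), and 1.73% reached that unadjusted threshold. In OCM1, 1 of the 6 passed, APOC2, against 0.118% of all genes, a count the choice of APOC2 fixed. That share is 15 of 12715 genes, and with the replicate number as a block it was 7, with 1 of the 6 members. There 2 of the 6, APOC2 and APOC1, had all CANT1 arrays above all wild type arrays, as did 6.5% of all genes. The choice of APOC2 bears on this count too, and APOC1 is in it by the probe set used, since its second brightest overlapped.

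Between the lines in CANT1 cells, 3 of the 5 members other than APOC2 were called higher in OCM1, namely APOC1, APOE and APOD, and 21.2% of all genes were. With APOC2, which those OCM1 arrays chose, the count is 4 of 6. In wild type cells 2 of the 6 were called higher, APOC1 and APOE, against 19.1% of all genes. The comparisons share arrays in pairs, so these counts are not separate pieces of evidence.

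Replicates 2 and 3 alone gave more calls over all genes in all 4 comparisons, and APOC2 did not pass the filter on dim genes there. Of the 5 members tested, 4 passed in OCM1, with APOC1, APOE and APOD higher and APOL2 lower in CANT1 cells, against 23.3% of all genes. Without the filter 5 of 6 passed there, against 15.8% of all genes, and APOC2, which this comparison chose, is among the 5. Nothing is read from these OCM1 counts. Between the lines 3 of 5 passed in CANT1 cells, against 66.3% of all genes, and 3 of 5 in wild type cells, against 64.7%. Without the filter 4 of 6 passed between the wild type lines, the dim APOC2 among them, against 45.8% of all genes.

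**Figure D3:**
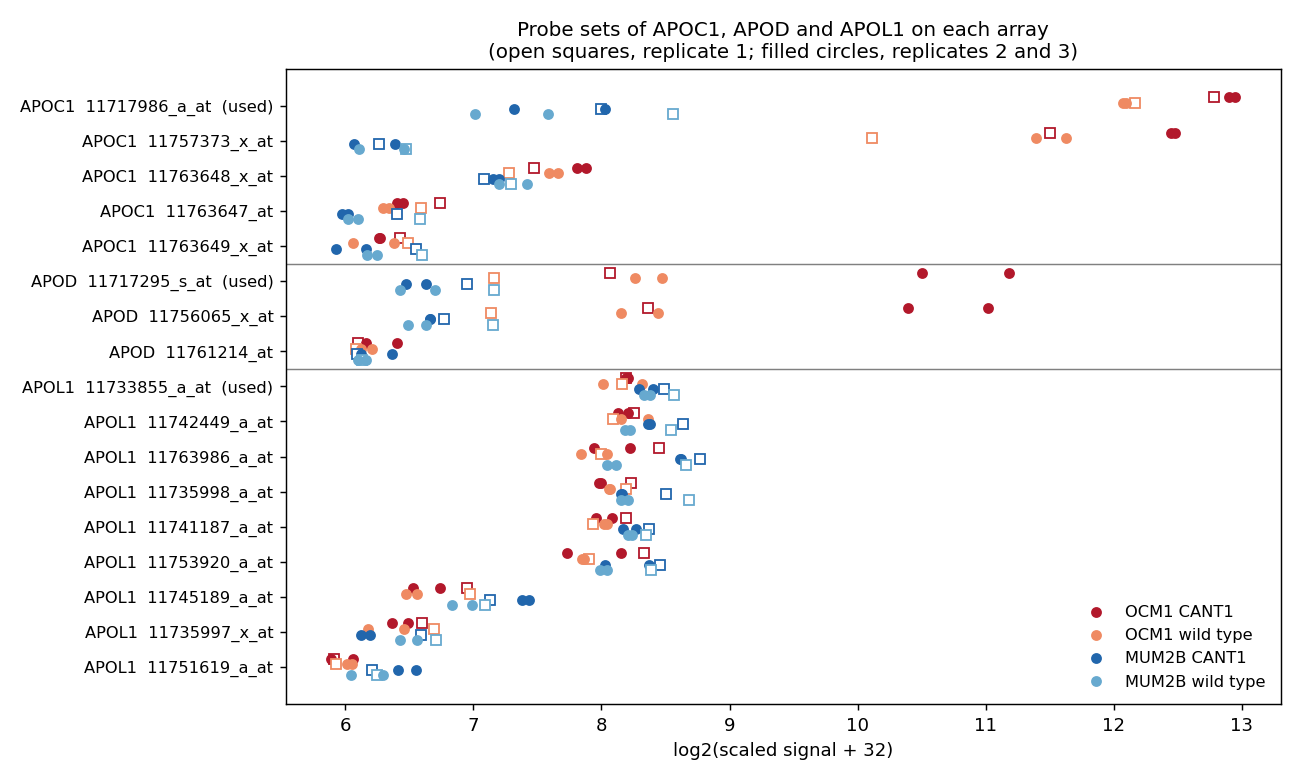
Level of every probe set annotated to APOC1, APOD or APOL1 alone on each array, as log2 of scaled signal plus 32, coloured by group, with open squares for replicate 1. On the 2 brightest probe sets of APOC1 and of APOD the OCM1 CANT1 mean lies above the wild type OCM1 mean and both lie above the MUM2B means, whereas the dimmest APOD probe set reads 6.08 to 6.40 in OCM1 and overlaps MUM2B.

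The genes whose pattern over the 12 arrays was most like that of APOC2 were FSTL5, EMILIN1, H2AC6, H2BC11 and SLC48A1. Likeness was Pearson's r over 12 arrays after the mean of each labelled set was subtracted, given as a description, since the arrays share groups and sets. It was 0.981 for FSTL5, 0.971 for EMILIN1, 0.963 for H2AC6, 0.958 for H2BC11 and 0.952 for SLC48A1.

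FSTL5, which encodes a secreted follistatin-like protein, had 7.91, 7.55 and 7.85 in OCM1 CANT1 cells, against 5.72, 5.85 and 5.65 in wild type OCM1 cells. EMILIN1, an elastic fibre glycoprotein, had 8.99, 9.81 and 9.77, against 7.51, 7.65 and 8.0 in wild type OCM1 cells. The histone gene H2AC6 had 8.44, 8.96 and 9.06 in OCM1 CANT1 cells, against 7.37, 7.60 and 7.82 in wild type OCM1 cells. Each was highest in the group where APOC2 was highest, which the measure itself selects. On replicates 2 and 3 alone FSTL5 ranked 2 and SLC48A1, a heme transporter, ranked 78. Of the other apolipoproteins APOD had r = 0.885 (rank 68), APOE 0.784 (rank 437) and APOC1 0.744 (rank 766), whereas APOL1 had −0.475 and APOL2 −0.199.

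Genes around the members in lipoprotein metabolism and along the chromosome were read from 9 lists. The lists overlap, so their counts are not separate. APOL3 and APOL6 count both as other apolipoproteins and as APOL neighbours, and APOM counts also as a lipocalin. For CANT1 against wild type, 0 genes of any list passed by limma in either line. On replicates 2 and 3 alone some did, in fits that called 25% of all genes in MUM2B and 23.3% in OCM1. In MUM2B these were 6 of 10 interferon factors, all higher in CANT1 cells, and 4 of 8 efflux and transfer genes, 3 of them higher. Of the other lists 2 of 8 apolipoproteins, 2 of 11 receptors, 3 of 8 nuclear receptors, 4 of 11 APOE neighbours and 3 of 7 APOL neighbours were called. The MUM2B replicate 1 arrays did not share these directions. There every interferon factor tested except IFNAR1 (0.21) was lower in CANT1 cells, as IRF9 by −1.32 against 1.16 on replicates 2 and 3. NPC1 (−1.27 against 1.14), ABCG1 (−0.82 against 1.55) and SOAT1 (1.11 against −0.63) reversed too, while ABCA1 (1.09 and 0.35) did not. In OCM1 the largest count was 3, of 11 receptors and of 11 APOE neighbours, and 2 of 10 interferon factors were called, both higher. Over all 12 arrays at an unadjusted p under 0.05 there were 4 in OCM1, namely LSR (0.83 ± 0.20), APOC1P1 (0.61 ± 0.14), LRP10 (0.22 ± 0.09) and APOLD1 (−0.69 ± 0.21). There was 1 in MUM2B, ABCA1 (0.60 ± 0.20). The limma adjusted p of these 5 was 0.195, 0.185, 0.512, 0.321 and 1. List medians lay between −0.12 and 0.21 in OCM1, where the median of all genes was 0.005, and between −0.09 and 0.16 in MUM2B, where it was −0.006.

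The lists were then compared between the lines. Of all genes 21.2% were called higher and 16.1% lower in OCM1 in CANT1 cells, and 19.1% higher and 13.9% lower in wild type cells, which is the background for each list's counts. ABCA1, the exporter that loads cholesterol onto apolipoproteins, was at 5.67, 5.90 and 5.89 in OCM1 CANT1 cells, against 11.32, 10.48 and 10.44 in MUM2B CANT1 cells. In wild type cells it was at 6.27, 5.79 and 5.88 in OCM1, against 10.23, 10.04 and 10.19 in MUM2B. The groups lay far apart, with differences of −4.93 ± 0.20 and −4.17 ± 0.20 (limma adjusted p = 1.5e-07 and 4.56e-07). ABCG1, a second exporter, was also lower in OCM1, by −3.47 ± 0.43 in CANT1 cells and −2.44 ± 0.43 in wild type cells. PLTP, which moves phospholipid between lipoproteins, was higher, by 2.68 ± 0.59 and 2.38 ± 0.59 (limma adjusted p = 0.00587 and 0.0126), but by 0.28 between the wild type replicate 1 arrays. Of 9 tested genes in this list, 1 was higher and 2 lower in CANT1 cells, and 1 higher and 3 lower in wild type cells, LCAT being the further one (−0.35 ± 0.11). 

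Among lipases and their regulators 8 genes were tested. LPL itself, the enzyme that APOC2 activates, was too dim to be tested, at 6.71, 6.95 and 6.79 in OCM1 CANT1 cells and 6.60, 6.44 and 6.70 in wild type OCM1 cells. PCSK6, a protease that cuts lipase and its regulators, was higher in OCM1 by 4.46 ± 0.19 in CANT1 cells and 4.35 ± 0.19 in wild type cells. The lysosomal lipase LIPA (0.80 ± 0.18 and 0.78 ± 0.18) and SEL1L, which helps lipase leave the endoplasmic reticulum (0.54 ± 0.12 and 0.49 ± 0.12), were higher in the same comparisons. PCSK5 was lower in CANT1 cells, by −2.00 ± 0.47. That makes 3 higher and 1 lower in CANT1 cells and 3 higher and 0 lower in wild type cells, with list medians of 0.12 and 0.25 against 0.086 and 0.056 over all genes.

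Among 13 lipoprotein receptors and regulators tested, 4 were higher and 1 was lower in OCM1, in CANT1 and in wild type cells alike. SCARB1, the HDL receptor, was higher by 2.29 ± 0.50 in CANT1 cells and 2.23 ± 0.50 in wild type cells (limma adjusted p = 0.00563 and 0.00757). In wild type OCM1 it was at 8.57 on replicate 1, far below 12.07 and 12.12 on replicates 2 and 3. The receptor chaperone gene LRPAP1 was higher by 1.66 ± 0.20 and 1.21 ± 0.20, and the lipolysis-stimulated receptor gene LSR by 1.62 ± 0.20 and 0.84 ± 0.20. MYLIP, a ligase that removes the LDL receptor, was higher by 0.82 ± 0.15 in CANT1 cells and 1.05 ± 0.15 in wild type cells. LRP10 was lower, by −1.39 ± 0.09 and −1.41 ± 0.09.

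Of 8 nuclear receptor genes tested, 1 was higher and 2 were lower in each comparison of the lines. RXRA, the partner of the liver X receptors, was lower in OCM1 by −1.31 ± 0.17 in CANT1 cells and −1.15 ± 0.17 in wild type cells. RXRG was higher by 1.03 ± 0.34 and 1.00 ± 0.34 (limma adjusted p = 0.0383 and 0.0478), though by −0.14 between the wild type replicate 1 arrays. PPARG was lower in CANT1 cells by −2.14 ± 0.74 (limma adjusted p = 0.0471) and PPARD in wild type cells by −0.57 ± 0.18 (limma adjusted p = 0.0332).

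Of the other apolipoproteins 22 were listed, 20 had a probe set of their own and 9 were tested. In CANT1 cells 1 was higher and 3 were lower in OCM1, and in wild type cells 2 were higher and 2 lower. The lower ones include APOL3 in both comparisons and APOL6 in CANT1 cells, which are counted again with the chromosome 22 neighbours below. APOO and APOOL, which are subunits of a mitochondrial inner membrane complex, went opposite ways. APOO was higher by 1.28 ± 0.26 in CANT1 cells and 1.56 ± 0.26 in wild type cells, and APOOL was lower by −0.87 ± 0.13 and −0.75 ± 0.13. APOM, a lipocalin carried on HDL, was higher by 0.46 ± 0.14 in wild type cells (limma adjusted p = 0.0335). It was the 1 gene called among the 2 lipocalins tested of 10 listed, and 0 were called in CANT1 cells, where 1 reached an unadjusted p under 0.05.

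Of 11 tested genes around the APOE cluster, 1 was higher and 2 were lower in OCM1 CANT1 cells than in MUM2B CANT1 cells, and 0 were higher and 1 lower between the wild type lines. APOC1P1 was the higher one (0.95 ± 0.14, limma adjusted p = 0.000771), and as given above it was also higher on every OCM1 CANT1 array than on every wild type OCM1 array, without passing. The adhesion gene NECTIN2 was lower by −0.78 ± 0.19 in CANT1 cells and −0.56 ± 0.19 in wild type cells, where the replicate 1 arrays differed the other way, by 0.06. RELB, an NF-κB subunit gene, was lower by −0.76 ± 0.26 in CANT1 cells. The list's median difference was −0.42 and −0.25, against 0.086 and 0.056 over all genes.

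The chromosome 22 neighbours were lower in OCM1 where any passed, while APOL1 and APOL2 did not pass. Of 7 tested, 5 were lower in CANT1 cells and 3 in wild type cells, and 0 were higher, where 16.1% and 13.9% of all genes were called lower. APOL3 had 7.04, 6.67 and 6.19 in OCM1 CANT1 cells, against 9.28, 7.67 and 8.24 in MUM2B CANT1 cells. The ranges did not meet, and the difference was −1.76 ± 0.28 (limma adjusted p = 0.00113), against −1.08 ± 0.28 between the wild type lines (limma adjusted p = 0.0173). APOL6 was lower by −1.40 ± 0.45 in CANT1 cells, the myosin gene MYH9 by −1.29 ± 0.30 and −1.44 ± 0.30, and the splicing factor gene RBFOX2 by −0.85 ± 0.13 and −0.73 ± 0.13.

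Interferon factors were listed because the APOL family responds to interferon. Of 10 tested, 1 was higher and 2 were lower in OCM1 in CANT1 cells, and 2 were higher and 1 was lower in wild type cells. The transcription factor gene IRF1 was lower by −1.86 ± 0.28 and −1.99 ± 0.28, and IFNAR1 by −0.28 ± 0.09 in CANT1 cells. The receptor gene IFNGR2 was higher by 0.79 ± 0.22 and 1.09 ± 0.22, and IFNAR2 by 0.63 ± 0.21 in wild type cells.

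**Figure D4:**
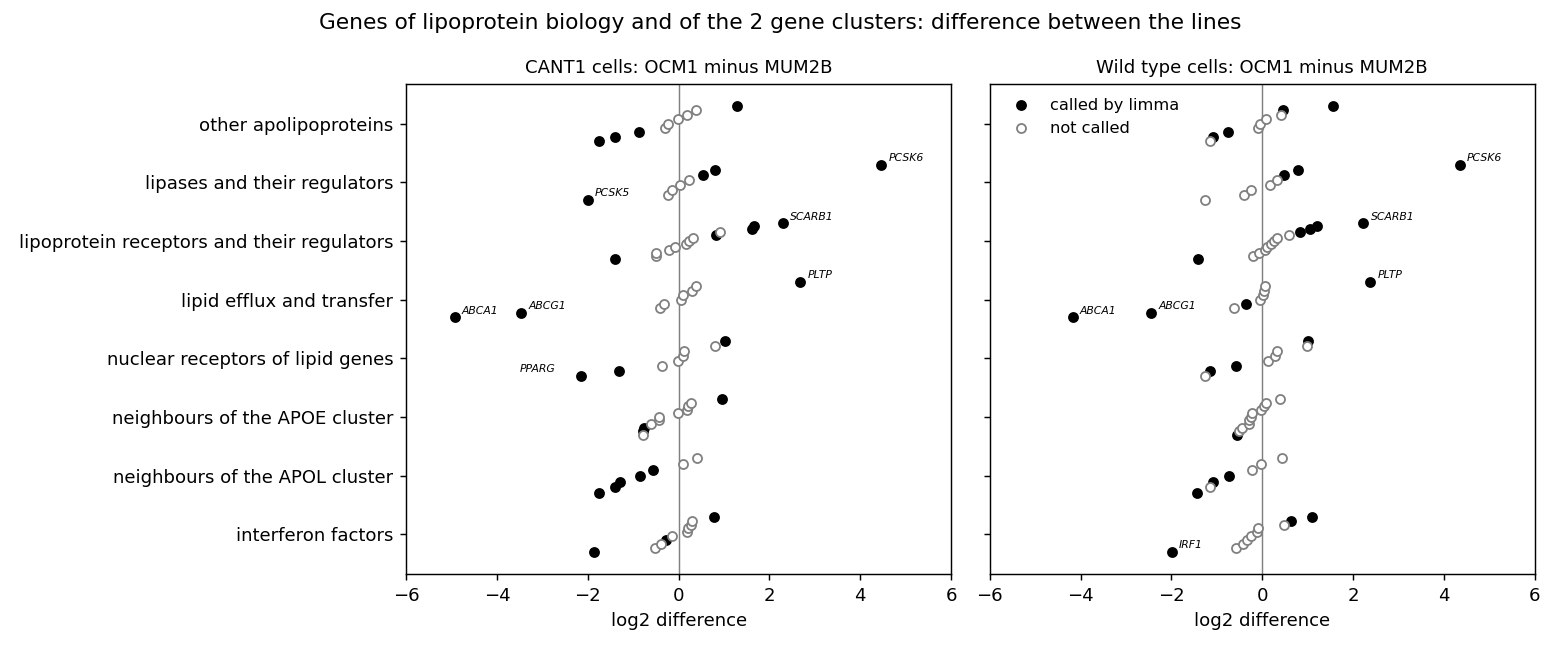
Log2 difference, OCM1 minus MUM2B, of each tested gene in 8 lists, for CANT1 cells on the left and wild type cells on the right; filled points passed limma's adjusted threshold and open points did not. ABCA1 lay at −4.93 and −4.17 and PCSK6 at 4.46 and 4.35, and every filled point among the APOL neighbours lay below 0.

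Markers of other cell types that make apolipoproteins were read for the same arrays. Of 6 hepatocyte markers, ALB, FGB and FGA were below a signal of 100 on every array. TTR and AHSG reached it on at least 1 OCM1 array, and TTR, SERPINA1 and AHSG on at least 1 MUM2B array. The hepatocyte sums were 362 to 431 in OCM1 CANT1 cells and 336 to 416 in wild type OCM1 cells, and 498 to 607 in MUM2B CANT1 cells and 399 to 546 in wild type MUM2B cells.

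Of 6 macrophage markers, CD14, CD163 and PTPRC were below 100 on every array. CSF1R, CD68 and AIF1 reached 100 in every group, 1 of them on all arrays. Their sums were 426 to 844 in OCM1 CANT1 cells and 403 to 558 in wild type OCM1 cells, and 465 to 653 in MUM2B CANT1 cells and 381 to 679 in wild type MUM2B cells. Of 3 measured glial markers, GFAP and MBP reached 100 on every array. The glial sums were 2619, 1697 and 1686 in OCM1 CANT1 cells, against 492, 1980 and 1888 in wild type OCM1 cells, where replicate 1 was low. APOE was also lowest on that array. On OCM1 CANT1 replicate 1, however, the glial sum was the highest of its group and APOE the lowest. In MUM2B the glial sums were 584 to 859 in CANT1 cells and 639 to 1054 in wild type cells. These lay above wild type OCM1 replicate 1 and below the other OCM1 arrays. The part of any such cells in the member levels was not tested.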

How the data were processed

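The deposited values, 1 per probe set and array, were read as log2 intensities from their range, and the submitters' processing notes name MAS5. The base of the logarithm and the scaling by the authors are not given in the sources used here. For each array 2 was raised to each value, the array was set to a trimmed mean of 500 (2% trimmed), and log2 was taken after adding 32. Of 49395 probe sets, 102 controls were left out; 44988 carried 1 gene symbol, 1832 several and 2473 none, and 44961 matched the RefSeq gene table by gene ID. The brightest probe set stood for each of 18132 genes, and the 12715 that reached a signal of 100 on 3 or more arrays were tested.

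All 12 arrays entered one model, fitted by lmFit and eBayes of limma 3.58.1 under R 4.3.3, which left 7 residual degrees of freedom, with a term for each group and one for the labelled set. P-values were adjusted by Benjamini-Hochberg over all genes tested, at a threshold of 0.05. The fit was tested on simulated data. The simulation covered the MUM2B comparison and gave a gene the same spread on every array. It therefore does not show how the fit handles an array that stands apart. The number of arrays limits the precision. Scaling brings arrays to a common level, so a change shared by all genes could not be seen.

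Members and lists were chosen with earlier results of these data known. Text names the 6 members, the 5 genes most like APOC2, and up to 4 passing genes of each list and comparison; genes reaching only an unadjusted p, LPL and a few others were named after their values were seen. Same-numbered arrays of the groups compared had deviations that correlated at 0.0293 to 0.623, and the labels do not say that a number marks a shared culture.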

Additional observations from a re-analysis of the deposited data

How the results depend on the processing

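Settings tried were quantile normalization, the deposited log2 values, offsets of 16 and 64, the filter dropped or made stricter, the set term dropped, replicate numbers as a block (the replicate block), replicates 2 and 3 alone, an intensity trend, array weights (whose estimate stopped before it converged), the mean of a gene's probe sets, only the arrays compared, and each of the 12 arrays left out. APOC1 and APOE between the wild type lines, and APOC1, APOE and APOD between the CANT1 lines, passed in all of these. The replicate block left the members called at 0 in MUM2B, 1 in OCM1, 2 between the wild type lines and 4 between the CANT1 lines, and changed no member's call, while over all genes it called 7 in OCM1 in place of 15.

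In MUM2B, members called went to 1 on replicates 2 and 3 only, and stayed at 0 with each array left out. In OCM1 they went to 4 on replicates 2 and 3 only, 5 without the filter there, 5 with array weights, 0 with only the arrays compared and 1 to 2 with an array left out (2 without OCM1 CANT1 replicate 1). Between the wild type lines they went to 4 on replicates 2 and 3 without the filter, 4 with array weights and 2 to 4 with an array left out (4 without OCM1 CANT1 replicate 1). Over all genes, OCM1 calls ranged more widely, at 2822 of 12105 on replicates 2 and 3, 3713 with array weights, 24 without a filter, 6 without the set term, 1 with only the arrays compared, and 5 to 139 with an array left out (139 without wild type OCM1 replicate 1, 82 without wild type MUM2B replicate 1). MUM2B calls were 3032 on replicates 2 and 3 and 2402 with array weights. Between the wild type lines they were 7829 and 8746, and between the CANT1 lines 8025 and 8781, with 7144 for only the arrays compared.

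The APOC2 difference between the wild type lines passed on the deposited values (0.76, limma adjusted p = 0.034), on replicates 2 and 3 without the filter (0.41, 0.00172) and with array weights (0.38, 0.00493). Its adjusted p ranged from 0.00172 to 0.218 over the settings. The values compared are dim and the wild type OCM1 arrays were part of the choice of APOC2, so nothing is read from these p-values. APOD passed there on replicates 2 and 3 (1.80, 4.5e-06; 1.7e-05 without the filter) and with array weights (1.88, 5.27e-05). APOL1 passed between the wild type lines after quantile normalization (−0.32, 0.0474) and between the CANT1 lines as the mean of its probe sets (−0.26, 0.0319). Of the 5 genes most like APOC2, 3 stayed in the top 5 on the deposited values and 1 on replicates 2 and 3.

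Differences near 0 changed sign, none of them called. In MUM2B, APOC1 was −0.09 as the mean of probe sets (−0.25 to 0.45 with an array left out), APOE 0.23 with array weights (−0.47 to 0.35), APOD 0.25 with array weights (−0.59 to 0.51), APOL1 0.01 with array weights and 0.09 as the mean of probe sets (−0.07 to 0.02), and APOL2 −0.31 to 0.01. APOL2 between the wild type lines was 0.16 on replicates 2 and 3 with or without the filter and 0.20 with array weights (−0.15 to 0.29). Between the CANT1 lines it was −0.03 after quantile normalization, −0.05 on the deposited values and −0.07 with array weights (−0.19 to 0.19). The cause of these changes was not tested. Dim levels limit what can be read of APOC2 and APOD in MUM2B, where 0 and 1 of 6 arrays reached a signal of 100.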

Other observations

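Among the lipid genes read with the apolipoproteins, several had a level on wild type OCM1 replicate 1 far from replicates 2 and 3 of that group. PPARG, the fat cell nuclear receptor, was at 10.26 on that array, against 6.56 and 6.57 on the other two. PCSK5 was at 8.80, against 6.13 and 6.48, and CLU, which encodes the extracellular chaperone clusterin, at 8.67, against 6.57 and 6.40. SCARB1 and PLTP were low there instead, at 8.57 against 12.07 and 12.12, and at 7.83 against 10.18 and 10.63. ABCA1 was not among them, at 6.27 on that array against 5.79 and 5.88, and at 10.04 to 10.23 on the wild type MUM2B arrays. With its high value on that array, PPARG differed by −3.77 between CANT1 and wild type OCM1 on replicate 1 and by 0.31 on replicates 2 and 3. These genes were chosen after their values were seen.

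ABCG1 also moved in opposite directions in MUM2B, by −0.82 between CANT1 and wild type cells on replicate 1 and by 1.55 on replicates 2 and 3. APOL6 did so as well, by −1.03 and 1.16, while ABCA1 was higher in CANT1 cells in both sets, by 1.09 and 0.35. None of the 3 passed in the fit to all arrays (limma adjusted p = 1).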
